A study of Mus musculus with 9 samples.

Results

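The lipid barrier of the epidermis was followed through 10 genes of the pathway that builds it: Elovl1, Elovl4, Cyp4f39, Cers3, Pnpla1, Ugcg, Abca12, Alox12b, Aloxe3 and Sdr9c7. They were chosen by name, for their place in the making of ceramides and in the lipoxygenase route, and each matched 1 gene identifier in a count table of 17943 genes. All 10 passed the filter on low counts, which kept 16428 genes for testing. The lowest member count in any library was 446 and the highest 53571, so counting error is small for every gene of the set.

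The study sequenced RNA from whole skin of mice, 5 controls and 4 Supt6-KO, taken on day 10 after the last injection. It describes the Supt6-KO samples as lesional skin and the control samples as matched skin. Supt6 encodes SPT6, a factor that travels with RNA polymerase II and helps it through chromatin. The Supt6-KO mice carried K14-CreERT and Supt6 fl/fl, with loxP sites around part of the gene, and received tamoxifen. By the study's methods the controls were Supt6 fl/fl mice without Cre, injected with corn oil, and the labels call them wild-type. Cre, tamoxifen and the deletion therefore go together and cannot be told apart here. The K14 promoter drives Cre in basal cells of stratified epithelia and their appendages, so dermal and immune cells in the same piece of skin should keep the gene. The study describes the injections as given in the first telogen, a resting phase of the hair cycle, and the age of the sequenced mice was not given in the sources used here. The labels name the tissue as ear and the methods name dorsal skin. The ear cartilage genes Acan and Col2a1 were present in every mouse, with Acan between 3048 and 11562 counts in the controls and between 233 and 356 in the Supt6-KO mice. Of the trunk Hox genes, Hoxb7, Hoxc8 and Hoxc10 had no more than 2 counts in any library and were left out by the filter. Hoxa5, Hoxa7 and Hoxc6 had no more than 12 counts in any library. Hoxd8, by contrast, had 333 to 433 counts and Hoxd9 149 to 205 in the controls. The site of the skin was not settled from these values.

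The outermost layer of the skin is waterproofed by ceramides with very long acyl chains, made by keratinocytes as they leave the basal layer. Elongases lengthen a fatty acid, a cytochrome P450 adds a hydroxyl group to its far end, a ceramide synthase joins it to a sphingoid base, and linoleic acid is then added to give an acylceramide. The lipid is carried to the cell surface in lamellar granules, where lipoxygenases and a dehydrogenase oxidise the linoleate so that the ceramide can be bound to the protein envelope. Loss of function in most of these genes causes ichthyosis.

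Supt6 itself was measured first. Its level was 74.5, 56.6, 63.6, 91.1 and 96.7 CPM in the controls and 28.6, 24.1, 21.9 and 28.4 CPM in the Supt6-KO mice. CPM are counts per 1000000 of the library after TMM scaling, which corrects each library's size by a factor from genes of middling change. No Supt6-KO mouse reached the lowest control, and the log2 fold change was -1.57 ± 0.18 (SE, adjusted p = 1.3e-05). This and all adjusted p-values on CPM come from the quasi-likelihood test of edgeR, adjusted by Benjamini-Hochberg over the 16428 genes. Counts are per gene, so they take in exons outside the loxP sites and RNA of cells without Cre.

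The barrier genes did not move as a block. Cers3, Sdr9c7 and Ugcg rose between 2.51-fold and 3.86-fold, Aloxe3 and Cyp4f39 fell to 0.463 and 0.453 of the control level, and Elovl1 fell to 0.649. Elovl4, Abca12, Alox12b and Pnpla1 did not pass the test. Thus 3 of 10 members were called higher, where 34.1% of all genes tested were, and 3 of 10 lower, where 36.8% were. With a limit of at least 2-fold the counts were 3 higher and 2 lower, beside 20.9% and 24.9% of all genes. In 3 members every Supt6-KO mouse lay above every control (28.9% of all genes) and in 2 every Supt6-KO mouse lay below (31.8%). These shares are near those of the whole table, and the median log2 fold change of the members, -0.07, was that of all genes tested (-0.072). Their values ran from -1.14 to 1.95 on the log2 scale, with an SD of 1.08, and all genes tested had an SD of 1.78, with 69.3% of them inside that range. The spread is thus no more than the whole table shows. The counts are near its shares, with the 3 of 10 higher by at least 2-fold somewhat above the 20.9%. The members are therefore described 1 by 1.

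**Figure D1:**
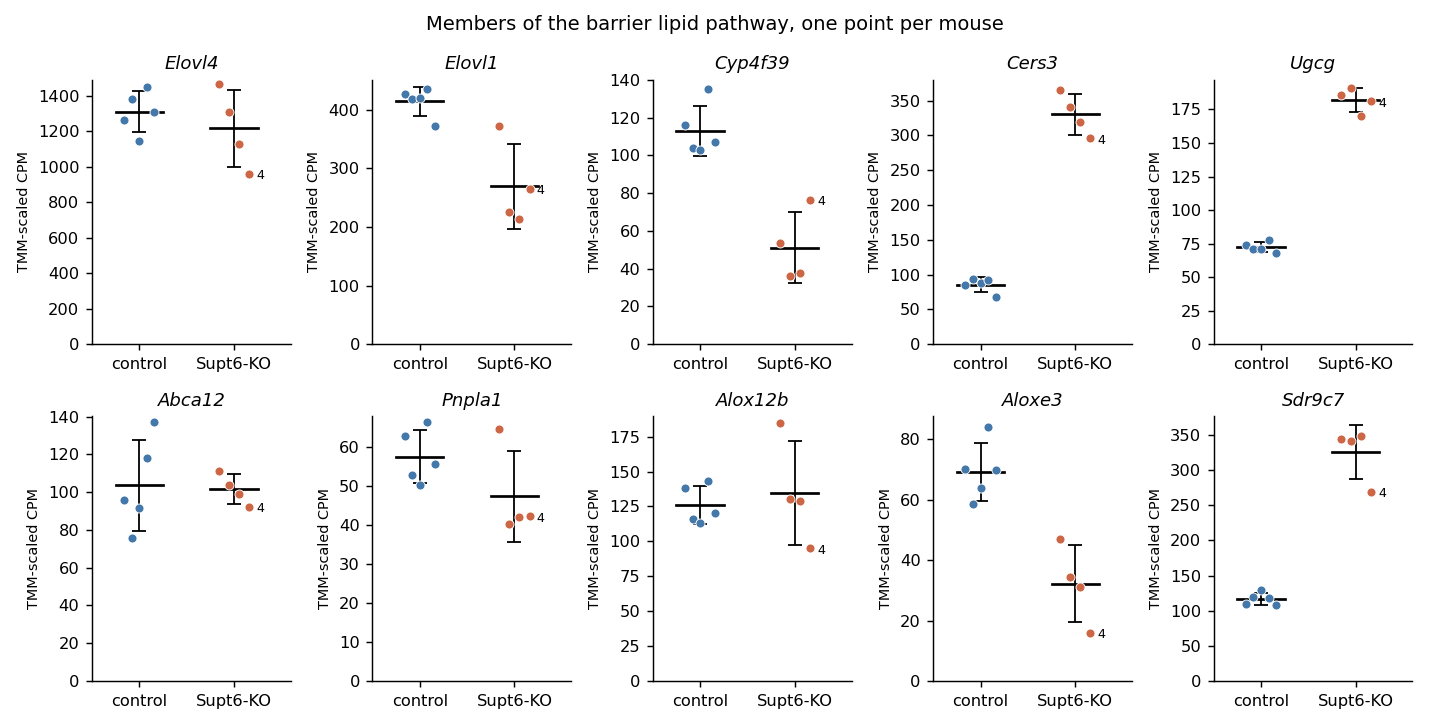
TMM-scaled CPM (vertical axes, each starting at 0) of the 10 members, ordered from fatty acid elongation to oxidation of the acylceramide. Each point is a mouse (5 control, 4 Supt6-KO), the bar is the group mean and the whisker the SD, and the digit 4 marks Supt6-KO mouse 4. Cers3, Ugcg and Sdr9c7 lie above every control and Cyp4f39 and Aloxe3 below every control.

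The stretches upstream of the start site are shown for 4 of the genes that changed, 2 that rose and 2 that fell, so that the kind of promoter behind each can be seen. Each is the 120 bases before the RefSeq start on the forward strand of GRCm38.p6, 5′ to 3′, with capitals for any match to a TATA box (TATAAA), a GC box (GGGCGG) or a CCAAT box (CCAAT), searched on both strands. They are Cers3 at chr7:66743384-66743503, Sdr9c7 at chr10:127898415-127898534, Cyp4f39 at chr17:32452603-32452722 and Elovl1, from the upstream of its 2 listed starts, at chr4:118427973-118428092. The whole Cers3 and Elovl1 stretches lie inside the RefSeq gene, downstream of another start, and the last bases of the Sdr9c7 and Cyp4f39 stretches may be transcribed from alternative starts.
Cers3: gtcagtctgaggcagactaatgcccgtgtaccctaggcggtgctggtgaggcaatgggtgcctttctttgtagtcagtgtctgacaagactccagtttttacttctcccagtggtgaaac
Sdr9c7: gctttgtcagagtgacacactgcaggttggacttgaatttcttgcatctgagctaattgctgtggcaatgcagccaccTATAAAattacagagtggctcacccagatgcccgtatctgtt
Cyp4f39: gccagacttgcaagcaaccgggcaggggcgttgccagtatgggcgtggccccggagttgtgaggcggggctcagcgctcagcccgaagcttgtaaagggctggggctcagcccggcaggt
Elovl1: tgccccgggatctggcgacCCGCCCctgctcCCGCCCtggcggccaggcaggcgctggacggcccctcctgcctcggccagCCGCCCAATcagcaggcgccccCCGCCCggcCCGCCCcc

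The 4 stretches differ in kind. Over the full 250 bases upstream, Cers3 and Sdr9c7 each had 49.6% G and C, with 6 and 2 CpG dinucleotides, beside a median of 52.4% and 6 over the 32851 upstream windows of the reference. Cyp4f39 had 59.6% and 10 CpG, and Elovl1 had 72.0% and 18. The Sdr9c7 window was the only member window with a TATAAA, which 12.4% of all windows hold, from 42 to 37 bases before the start. The Elovl1 window shown held 5 GC boxes, the middle one overlapping its CCAAT by 2 letters. GC boxes were found for 4 of the 9 members that have a window (Alox12b, Elovl4, Elovl1 and Ugcg), and in 32.7% of all windows. Ugcg, which rose, had the highest G and C content of the member windows (80.4%, 43 CpG), so rich windows were found among genes of both directions. By G and C content the only member windows under the median, Cers3 and Sdr9c7, belong to genes that rose. By CpG the windows under the median were Sdr9c7 (2) and, with 5 each, Abca12, Pnpla1 and the downstream start of Elovl1. The latter belong to genes that did not pass the test or fell. Letters that match the AP-1 (TGANTCA), Grainyhead (AACCNGTT) or NF-kB motif, on either strand, were in no member window and in 6.75%, 1.79% and 1.41% of all windows.

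Among the enzymes that make the acyl chain, the elongases Elovl4 and Elovl1 parted. Elovl4, which makes the ultra-long chains of acylceramides, stood at 1266, 1385, 1147, 1449 and 1308 CPM in the controls and at 1466, 1307, 1131 and 962 CPM in the Supt6-KO mice. The Supt6-KO mice spread past the controls on both sides, and the log2 fold change was -0.11 (95% interval -0.47 to 0.25, adjusted p = 0.57, edgeR). Elovl1, which supplies the shorter very long chains on which Elovl4 works, stood at 427, 419, 420, 435 and 372 CPM in the controls and at 373, 226, 213 and 265 CPM in the Supt6-KO mice. Supt6-KO mouse 1 and control 5 touched, and the other 3 Supt6-KO mice were lower than every control. The log2 fold change of Elovl1 was -0.62 ± 0.17 (SE, adjusted p = 0.0066, edgeR). The 3′ end of Elovl1 overlaps exons of Cdc20, a cell division gene on the other strand, which rose from 11.3 to 52.1 CPM (log2 fold change 2.20, adjusted p = 0.0014, edgeR). Whether the counting used strand is not given in the sources used here, so reads of the shared stretch cannot be told apart.

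Cyp4f39, the P450 that hydroxylates the end of the ultra-long chain, fell. It stood at 116, 104, 103, 135 and 107 CPM in the controls and at 53.7, 36.4, 37.7 and 76.6 CPM in the Supt6-KO mice. All 4 Supt6-KO mice were below the lowest control, with mouse 4 nearest to it. The log2 fold change was -1.14 ± 0.21 (SE, adjusted p = 0.00053, edgeR), and -1.41 without mouse 4.

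Cers3, the ceramide synthase that takes these ultra-long chains, rose most of the members. It stood at 85.1, 93.5, 88.6, 92.4 and 67.9 CPM in the controls and at 365, 341, 319 and 296 CPM in the Supt6-KO mice. The lowest Supt6-KO mouse was more than 3 times the highest control, and the log2 fold change was 1.95 ± 0.13 (SE, adjusted p = 5.3e-07, edgeR). Pnpla1, the transacylase that puts linoleic acid on the ceramide, stood at 62.8, 52.9, 50.4, 66.4 and 55.6 CPM in the controls and at 64.8, 40.4, 42.1 and 42.3 CPM in the Supt6-KO mice. All Supt6-KO mice but mouse 1 were below the controls, and mouse 1 was near the highest of them. The test was not passed (log2 fold change -0.28, 95% interval -0.63 to 0.07, adjusted p = 0.13, edgeR), but without mouse 1 the value was -0.47 (adjusted p = 0.0069). An antisense gene, Pnpla1os, overlaps Pnpla1 and was not analysed here.

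Of the genes for the glucosylated form and its transport, Ugcg rose and Abca12 did not pass the test. Ugcg, which puts glucose on ceramide before it is packed into lamellar granules, stood at 74.1, 71.1, 71.2, 77.8 and 68.2 CPM in the controls and at 186, 191, 170 and 181 CPM in the Supt6-KO mice. Both groups were tight, and the log2 fold change was 1.33 ± 0.10 (SE, adjusted p = 9.7e-07, edgeR). Abca12, the transporter that loads these granules, stood at 96.0, 75.6, 91.4, 118 and 137 CPM in the controls and at 111, 104, 99.1 and 92.1 CPM in the Supt6-KO mice. The Supt6-KO mice lay inside the range of the controls (log2 fold change -0.03, 95% interval -0.39 to 0.33, adjusted p = 0.88, edgeR).

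The 3 enzymes that act on the linoleate in turn went 3 ways. Alox12b, the lipoxygenase of the opening step, stood at 138, 116, 113, 143 and 120 CPM in the controls and at 185, 130, 129 and 95.0 CPM in the Supt6-KO mice. The Supt6-KO values reached past the controls on both sides (log2 fold change 0.10, 95% interval -0.29 to 0.48, adjusted p = 0.63, edgeR). Aloxe3, which turns the hydroperoxide made by Alox12b into an epoxy alcohol, stood at 70.1, 58.5, 63.9, 84.2 and 69.9 CPM in the controls and at 47.0, 34.5, 31.0 and 16.0 CPM in the Supt6-KO mice. No Supt6-KO mouse reached the lowest control, and the log2 fold change was -1.11 ± 0.25 (SE, adjusted p = 0.0019, edgeR). Mouse 4 was the lowest, and without it the fall was 0.89, under the 2-fold limit.

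Sdr9c7, the dehydrogenase that oxidises the epoxy alcohol to a ketone, rose. It stood at 110, 120, 129, 118 and 108 CPM in the controls and at 344, 341, 349 and 269 CPM in the Supt6-KO mice. Mice 1 to 3 were nearly equal and mouse 4 was lower, still above all controls. The log2 fold change was 1.48 ± 0.12 (SE, adjusted p = 1.8e-06, edgeR). Alox12b and Aloxe3, the pair that parted, are neighbours on the forward strand of chromosome 11 (GRCm38), with 7873 bases between the end of Aloxe3 and the start of Alox12b.

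In bulk skin, fewer cells of a type and less RNA per cell cannot be told apart, and the values above also hang on how libraries are scaled. TMM factors were 1.198 to 1.315 in the controls and 0.674 to 0.91 in the Supt6-KO mice, although the library totals differed little (29627341 to 30967119 counts). Scaled by totals alone, all genes tested had a median of -0.759 on the log2 scale. Cers3 (1.25), Sdr9c7 (0.77) and Ugcg (0.63) stayed higher, and the 7 other members were then all called lower, Alox12b at -0.61 (adjusted p = 0.0085, edgeR) included. With that scaling 16.9% of all genes were called higher and 54.6% lower, 8.95% were higher by at least 2-fold (1 member, Cers3), and 49.0% had every Supt6-KO mouse below every control (6 members). Against the shifted median, Alox12b was 0.15 higher, Abca12 0.02 higher and Elovl4 lower by a log2 difference of -0.06, so these stayed near the middle of all genes under either scaling. Aloxe3 was at -1.08, Cyp4f39 at -1.03 and Elovl1 at -0.54 against the same median.

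Transcript length was a further axis on which the groups differed. Log2 counts were centred on each gene's mean over all mice before the slope on log10 transcript length was taken. The slope of these centred values was 0.382 to 1.57 in the controls and -0.666 to -1.232 in the Supt6-KO mice. Slopes of both signs follow from the centring, so only the difference between the groups is read as a length trend. Whether counts rise or fall with length within a library was not measured. With that trend taken out, Abca12, whose longest transcript is the longest of the 10, rose (log2 fold change 0.85, adjusted p = 7.9e-05, edgeR), and the 6 members called before kept their direction and their call. Pnpla1 was then at 0.01 and Alox12b at -0.09, neither past the test. The source of the length trend was not tested.

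**Figure D2:**
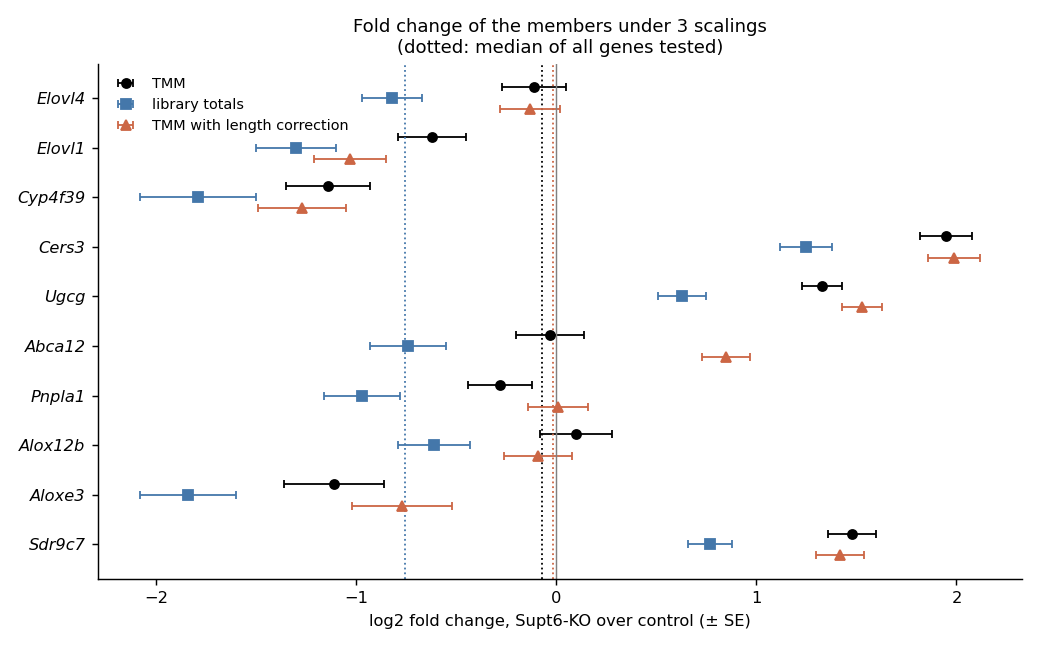
Log2 fold change of each member, Supt6-KO over control, with SE as the whisker, under TMM scaling (circles), library totals (squares) and TMM with a correction for transcript length (triangles). Dotted lines mark the median of all genes tested under each. Cers3, Ugcg and Sdr9c7 are above 0 and Cyp4f39, Aloxe3 and Elovl1 below 0 under all 3, whereas Abca12 moves from -0.74 to 0.85.

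Ratios of 2 genes within a library do not depend on the scaling between libraries, and they separated the groups for the pairs chosen. Of all 45 pairs of members 32 did not overlap between the groups. Pairs of all genes were not counted, so the 32 are not read as a trait of the members. Of single genes, 28.9% lay wholly above the controls and 31.8% wholly below. The 32 include all 21 pairs of a gene called higher with a member not called higher, and 11 of the other 24. The 6 pairs tested were chosen for neighbouring or related steps, with earlier results known, and differed with no overlap between the groups, each with p = 0.016, the smallest that an exact two-sided permutation test of 5 against 4 mice can give, and adjusted p = 0.016 over the 6 pairs. All 6 pairs set a member that had been called beside one that had not. Their p-values were thus largely set by the earlier calls, and the pairs restate the member values on another footing. Aloxe3 counts were 51.0, 50.5, 56.5, 58.9 and 58.3% of Alox12b counts in the controls and 25.4, 26.6, 24.0 and 16.9% in the Supt6-KO mice. The lipoxygenase pair thus shifted by a log2 difference of -1.26, or -0.68 from the fold changes corrected for transcript length, which a ratio does not remove. That correction took the longest transcripts, 4684 bases for Aloxe3 and 2431 for Alox12b. The deposited values imply closer lengths, with 2622 counts at 50.2 TPM for Aloxe3 and 5146 at 108 TPM for Alox12b in control 1. The -0.68 therefore depends on the length taken for Aloxe3. Sdr9c7 counts were 79.8 to 114% of Alox12b counts in the controls and 186 to 284% in the Supt6-KO mice (log2 difference 1.41).

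The same held for the chain-making and ceramide steps. Cers3 counts were 6.72, 6.75, 7.73, 6.38 and 5.19% of Elovl4 counts in the controls and 24.9, 26.1, 28.2 and 30.7% in the Supt6-KO mice (log2 difference 2.08). The Abca12 to Ugcg ratio was 1.06 to 2.02 in the controls and 0.509 to 0.596 in the Supt6-KO mice, a log2 difference of -1.33, or -0.68 with the length correction. The Elovl4 to Elovl1 ratio was 2.73 to 3.51 in the controls and 3.93, 5.79, 5.31 and 3.63 in the Supt6-KO mice, where mice 1 and 4 came close to the controls (log2 difference 0.54, or 0.90 with the length correction). The Pnpla1 to Cyp4f39 ratio was 0.49 to 0.542 in the controls and 1.21, 1.11, 1.12 and 0.553 in the Supt6-KO mice, so that mouse 4 was barely outside the controls.

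**Figure D3:**
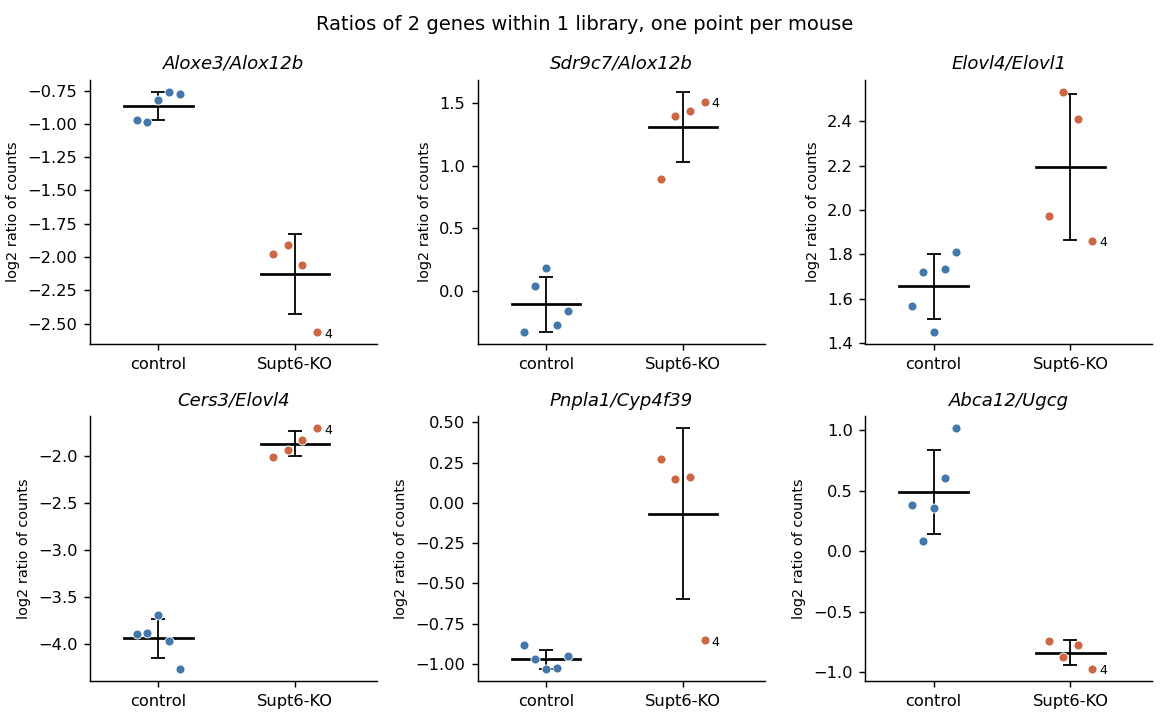
Log2 ratio of the counts of 2 members within the same library (vertical axes, which do not start at 0), with a point per mouse, the group mean as the bar and the SD as the whisker. The groups do not overlap in any of the 6 panels, and Supt6-KO mouse 4, marked 4, is next to the controls for Pnpla1/Cyp4f39.

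Levels of different genes were compared per length, as each gene's share of the summed per-length level of the 10 members in a library. Elovl4 led in every mouse, with 46.8% ± 2.15 (SD, n = 5) in the controls and 42.4% ± 2.53 (SD, n = 4) in the Supt6-KO mice, and Elovl1 came next, with 27.2% ± 1.61 and 17.1% ± 3.02. The elongases thus kept the top of the order while Elovl1 lost share in every Supt6-KO mouse. Below them the order was rearranged. Sdr9c7 went from 4.54% ± 0.48 to 12.4% ± 1.48, from the fifth place to the third, and Cers3 from 2.85% ± 0.311 to 10.8% ± 0.664, from the seventh to the fourth. Alox12b held 6.07% ± 0.436 and 6.27% ± 0.847, and Ugcg went from 2.08% ± 0.0749 to 5.17% ± 0.662. Cyp4f39 dropped from 4.79% ± 0.328 to 2.19% ± 1.02 and Aloxe3 from 3.05% ± 0.317 to 1.35% ± 0.378. At the bottom, Pnpla1 (1.35% and 1.08%) and Abca12 (1.27% and 1.22%) were not separate from each other beyond their spread in either group. In the controls the same held for Cyp4f39 and Sdr9c7 and for Aloxe3 and Cers3. In the Supt6-KO mice it held for Sdr9c7 and Cers3, for Alox12b and Ugcg, for Cyp4f39 and Aloxe3 and for Aloxe3 with either Abca12 or Pnpla1.

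**Figure D4:**
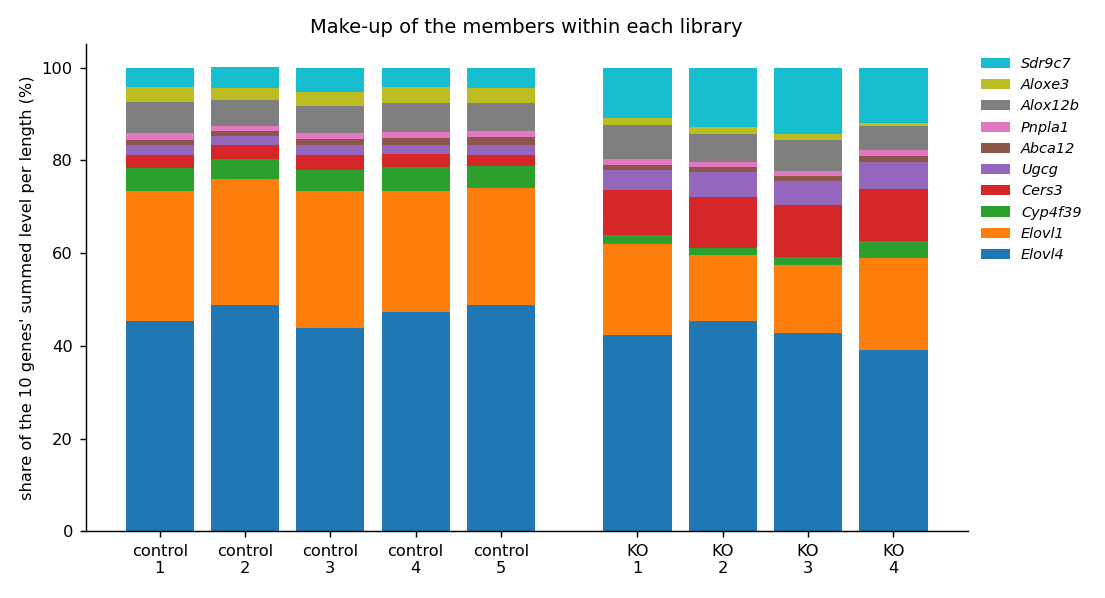
Share of each member in the summed per-length level of the 10 genes, as stacked bars that add up to 100% for each mouse (5 controls on the left, 4 Supt6-KO mice on the right). Elovl4 is the largest part everywhere, and the parts of Sdr9c7, Cers3 and Ugcg are larger in each Supt6-KO mouse than in any control.

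The barrier lipids are made by differentiating keratinocytes, so keratin levels were set beside the members. Which cells the RNA of each member came from was not measured in this bulk skin. Krt10, the keratin of suprabasal cells, stood at 14442, 13791, 13624, 15479 and 14385 CPM in the controls and at 19561, 19843, 18223 and 7774 CPM in the Supt6-KO mice, and did not pass the test (log2 fold change 0.19, adjusted p = 0.56, edgeR). Its partner Krt1 rose in all 4 mice, from 833 to 10423 CPM on average. Relative to Krt10 counts in the same library, 4 of the 10 members passed an exact two-sided permutation test, each with adjusted p = 0.04 over the 10 members. These were Cers3 (log2 difference 1.86), Sdr9c7 (1.38), Ugcg (1.23) and Aloxe3 (-1.30), and the other 6 had adjusted p of 0.16 to 0.9. This count rested on the reference and on single mice, with 0 to 8 members passing when a mouse was left out. The share of all genes passing the same test was not measured. With the summed basal keratins Krt5 and Krt14 as the reference, Cers3, Sdr9c7, Ugcg and Cyp4f39 passed, and with summed Krt1 and Krt10 all 10 did. Against that last reference, in which Krt1 itself had risen, only Cers3, Sdr9c7 and Ugcg were higher.

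Supt6-KO mouse 4 stood apart in its keratins. The 10 markers of differentiated keratinocytes summed to 31513 to 36804 CPM in the controls and to 46862, 45469, 43903 and 22893 CPM in the Supt6-KO mice. Of these, 5 were called higher and 2 lower, with Krt10 the most abundant. The wound-associated keratins (Krt6a, Krt6b, Krt16 and Krt17, with Krt16 the most abundant in Supt6-KO skin) summed to 564, 389, 345, 345 and 274 CPM in the controls and to 5513, 2948, 5377 and 22836 CPM in the Supt6-KO mice, and all 4 were called higher. Krt17, whose groups overlap, was not called without mouse 4, with library totals or with the replicate block, which left 3. Of 7 basal markers 6 were called lower and none higher, with sums of 11645 to 13313 CPM in the controls and 8402, 5800, 7014 and 14104 CPM in the Supt6-KO mice, led by Krt14 in the latter. With library totals 5 of the differentiated markers were lower, and DESeq2 called 1 basal marker higher. Without mouse 4 the calls of all 10 members stood, 3 higher and 3 lower, and 8 members passed relative to Krt10. No marker of these lists was at 0 in every mouse, and the part of cell makeup in the member values was not tested.

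Markers of other cell types differed between the groups as well. The 11 sebaceous gland markers, led by Scd1, summed to 7302, 7198, 7008, 8055 and 8216 CPM in the controls and to 2172, 2226, 1791 and 1242 CPM in the Supt6-KO mice, with 9 called lower and 1, Mgst1, higher (none higher with library totals). The neutrophil markers, led by S100a9, summed to 32.5, 42.9, 33.4, 14.1 and 15.7 CPM in the controls and to 4573, 5172, 6455 and 2520 CPM in the Supt6-KO mice, with 7 of 8 tested called higher and 1 lower. S100a8 and S100a9 make up most of that sum and are also made by keratinocytes. The neutrophil marker called lower was Mpo, of low level, at 0.354 CPM in the controls and 0.0104 CPM in the Supt6-KO mice. Elovl3 and Dgat2 are both sebaceous markers and genes of the pathway lists below. The part of these cells in the gene changes was not tested.

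The rest of the pathway was followed in 6 lists of other genes. Of 89 gene names, 85 were tested, of which 25 were higher and 37 lower, or 29.4% and 43.5%, beside 34.1% and 36.8% of all genes. The median log2 fold change was -0.20. With library totals 13 were higher and 55 lower, and without mouse 4 there were 26 higher and 40 lower. The trend with transcript length was not taken out of the values of these lists.

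Early steps that make the sphingoid base and the ceramide had 8 of 16 genes higher and 5 lower, with a median log2 fold change of 0.86. With library totals 6 were higher and 7 lower, and the median was 0.15. Degs2, which adds the hydroxyl group of phytoceramides, had 173 to 266 counts in the controls and 1987 to 3581 in the Supt6-KO mice, a rise of 4.48 on the log2 scale (adjusted p = 1.6e-07, edgeR). Ormdl1, a brake on serine palmitoyltransferase, rose by 2.58 and its relative Ormdl2 by 1.82, whereas Ormdl3 fell by 0.54 on the log2 scale. The transferase subunits Sptlc1 (1.23), Sptlc2 (0.95) and Sptssa (2.01) were higher too, while Sptlc3 (-0.09) and Sptssb (1.82, adjusted p = 0.07) did not pass. Of the other ceramide synthases, Cers4, at 322 CPM in the controls, fell (log2 fold change -1.35) and Cers6 from 23.7 to 8.23 CPM (-1.53), and Cers5 (-0.89) and Cers1 (-2.20) were lower as well. Cers2 was at -0.20 with adjusted p = 0.41. Cers3 was thus the only 1 of the 6 ceramide synthase genes called higher, with TMM as with library totals.

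Fatty acid elongation and activation had 3 of 19 genes higher and 9 lower, with a median log2 fold change of -0.82. With library totals 2 were higher and 15 lower, with a median of -1.54. Elovl7 rose from 158 to 569 CPM (1.85) and Hacd4, a dehydratase gene of low level, from 1.76 to 3.61 CPM (1.04). The groups of Hacd4 overlapped, and it was at 0.36 with library totals. Fa2h, the 2-hydroxylase of fatty acids, fell from 579 to 47.3 CPM (-3.61, adjusted p = 8.8e-06, edgeR), and Fasn, fatty acid synthase, from 262 to 50.5 CPM (-2.37). Elovl6, Elovl5 and Elovl3 were also lower, at -1.57, -2.22 and -1.09, as was Slc27a4 (-0.94), which takes up and activates long chains. Elovl4 was thus set among elongases of which most fell.

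In the list for acylceramide formation 4 of 10 tested genes were higher and 5 lower, with a median of -0.38. With library totals 2 were higher and 6 lower, with a median of -1.07. Abhd5, the co-activator of Pnpla1, rose from 175 to 572 CPM (log2 fold change 1.71, adjusted p = 1.2e-05, edgeR). Nipal4, also an ichthyosis gene, rose from 90.2 to 163 CPM (0.86, or 0.17 with library totals). Cyp4f18, a P450 known from neutrophils, rose from 0.293 to 5.28 CPM (4.14), while Cyp4f13 (-1.30) and Plin2 (-0.86), a coat protein of lipid droplets, fell. Cyp4f14, Cyp4f15 and Cyp4f40 were below the filter.

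Extracellular processing had 6 of 18 genes higher and 3 lower, with a median of 0.12. With library totals the balance turned, to 1 higher and 10 lower with a median of -0.60. That scaling moved all genes, to 16.9% higher, 54.6% lower and a median of -0.759. Lipm (1.79) and Lipk (1.01), lipases of late keratinocytes, rose, as did Tgm1 (0.65), the transglutaminase of the cornified envelope. Lipk had mouse 4 below every control and was at 0.26 with library totals. Cerk (-1.17), ceramide kinase, and the ceramidase Acer2 (-1.03) fell. With library totals Tgm1 was at -0.04, so its sign hung on the scaling, while it lay above the median of all genes under both.

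Of the other lipoxygenase and epoxide hydrolase genes all 10 were called with TMM, 4 higher and 6 lower, with a median of -1.21. With library totals 2 were higher and 6 lower, with a median of -1.89. Ephx3, an epoxide hydrolase that acts downstream of Alox12b and Aloxe3, rose from 42.2 to 107 CPM (log2 fold change 1.34, adjusted p = 3.2e-06, edgeR). Ephx4 rose from 0.715 to 2.84 CPM (1.98) and Alox8 from 6.46 to 27.7 CPM (2.10), the latter with overlap between the groups. Alox8 had 1185, 976, 285 and 44 counts in the Supt6-KO mice and 84 to 486 in the controls, so mouse 4 was below every control. Alox12e, an epidermal lipoxygenase, fell from 354 to 18.6 CPM (-4.25, adjusted p = 0.0001) and Alox5, the leukotriene-forming enzyme of leukocytes, from 20.4 to 2.35 CPM (-3.11).

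None of the 12 other ABC transporter and glycosphingolipid genes was higher and 9 were lower, with a median of -0.99 (none and 11 with library totals, median -1.72). Abca3 fell from 53.3 to 6.75 CPM (-2.98) and Abca5 from 66.4 to 10.6 CPM (-2.66), beside -0.03 for Abca12. The length correction put Abca12 at 0.85 and is not given for the genes of this list, so the part of length in their falls was not tested. Of the enzymes that extend the product of Ugcg, B4galt5 (-0.62), B4galt6 (-1.39), St3gal5 (-1.35) and A4galt (-0.93) were lower, and B3gnt5, of low level, did not pass (0.69, adjusted p = 0.16). Gltp, a glycolipid carrier and the most abundant gene of the list, stood at 680 and 728 CPM and did not pass the test.

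**Figure D5:**
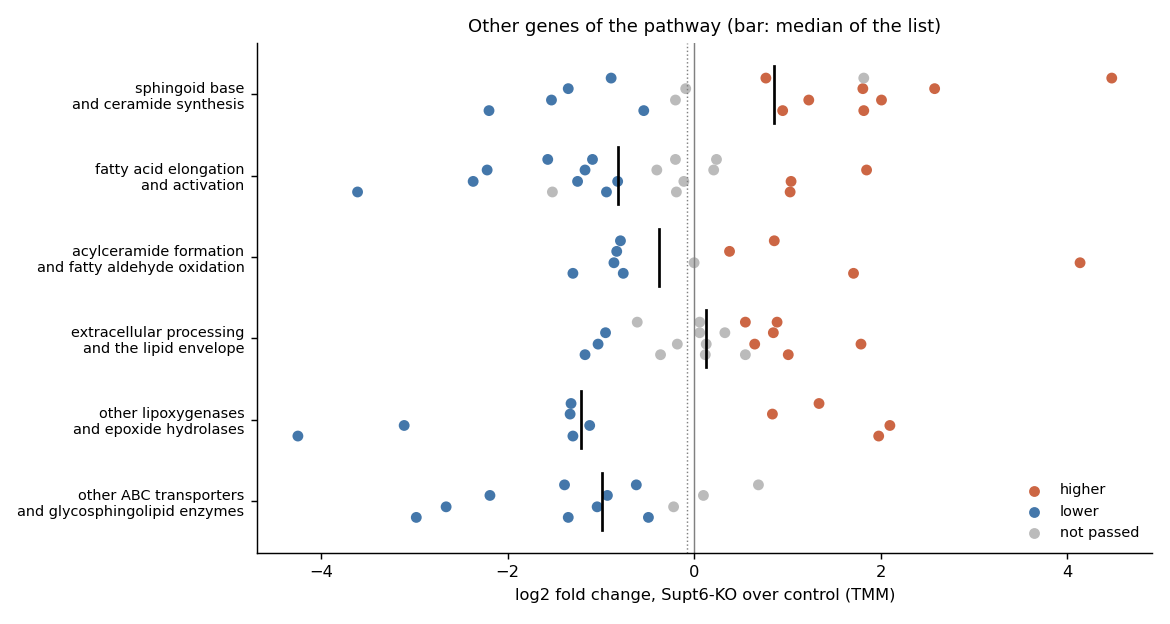
Log2 fold change, Supt6-KO over control on the TMM scale, of the 85 other pathway genes tested, by list, with a point per gene coloured by its call and a bar at the list's median. The dotted line is the median of all genes tested. The list of sphingoid base and ceramide synthesis has its median at 0.86, and those of elongation, lipoxygenases and ABC transporters at -0.82, -1.21 and -0.99.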

How the data were processed

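The authors aligned reads to mm10 and deposited RSEM estimated counts per gene for 9 mice, with TPM for 6 of them. The submitters' processing notes name Bowtie2 2.3.4.3, RSEM 1.3.1, HISAT and DESeq2 1.4.5. The deposited TPM were used only to derive the effective length of each member. Of the estimated counts 9.0% were not whole, and all were rounded. Gene identifiers were matched to RefSeq (GRCm38.p6, 17917 of 17943). The 9 member promoters come from RefSeq, and Aloxe3 had no entry. Transcript lengths are the longest GENCODE M21 transcript, for 17866 genes.

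Genes with at least 10 counts over the 9 mice were tested with edgeR 4.0.16 (R 4.3.3), TMM and no covariates. A call is an adjusted p under 0.05. The SE is the log2 fold change over the root of the quasi-likelihood F, and 95% intervals use its t quantile. Ratios used a pseudocount of 0.5 and exact two-sided permutation tests. No 2 libraries were alike (at most 1.91% identical counts among well counted genes). Nothing states that the mice are from separate litters, and p-values measure the spread between these mice. Library totals are given with the results.

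The members and all gene lists were chosen with earlier results of these data known. Named are the members, Supt6, the reference keratins, and of each list the 2 higher and 2 lower genes of largest change with at least 1 CPM, plus genes named for their role or as a list's most abundant gene. The result for 1 gene of the pathway lists is not reported here. Cdc20 was named for its overlap with Elovl1. Alternatives were DESeq2 1.42.0, other scalings and filters, a replicate block, a length correction, other reference keratins and each mouse left out. The tests were tried on simulated data, and no result of that trial is used here.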

Additional observations from a re-analysis of the deposited data

Results flagged for a closer look

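A single mouse lay far from its group in 8 of 70 groups of values examined, where chance gives about 1 in 20, or 3.5. Supt6-KO mouse 4 gave 5 of these values. Its Krt10 level was 7774 CPM, beside a group median of 18892 CPM, its differentiated keratinocyte markers summed to 22893 CPM (median 44686) and its wound-associated keratins to 22836 CPM (median 5445). Its Sdr9c7 level was 269 CPM, where the group median was 343 CPM. The log2 ratio of Pnpla1 to Cyp4f39 in the same mouse was -0.856, where the group median was 0.156. Pnpla1 in Supt6-KO mouse 1 was 64.8 CPM, and the next value was 42.3 CPM. In control 5, Elovl1 was 372 CPM (median 420) and the macrophage markers summed to 176 CPM (median 98.2).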

How the results depend on the processing

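Cers3, Sdr9c7, Ugcg, Aloxe3, Cyp4f39, Elovl1 and Supt6 kept their direction and their call under all 17 alternatives. With library totals, 7 members were lower (54.6% of all genes), only 1 was higher by at least 2-fold (8.95%), 6 had all Supt6-KO mice below all controls (49.0%), and 13 pathway genes were higher. The members called then split 3 to 7, in place of 3 to 3. Alox12b turned to -0.61 with library totals, to -0.09 with the length correction and to -0.10 without Supt6-KO mouse 1. Abca12, at -0.03, was 0.03 with DESeq2, 0.11 with the replicate block, 0.85 with the length correction, and 0.02, 0.09 and 0.01 without control 4, control 5 and Supt6-KO mouse 4. Pnpla1 was 0.01 with the length correction, and passed the test with upper-quartile factors (-0.37) and without Supt6-KO mouse 1 (-0.47). With each mouse left out, 3 members were higher, 3 to 4 lower and 1 to 2 lower by at least 2-fold, the 1 without Supt6-KO mouse 4, where Aloxe3 was -0.89. Alox12b ranged from -0.10 to 0.23 and Abca12 from -0.12 to 0.09. The 6 ratios do not overlap between the groups, so leaving out a mouse could not end their calls, and a pseudocount of 5 changed none.

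Relative to Krt10, 0 to 8 members passed with a mouse left out. In 8 of these 9 runs none passed, since Cers3, Sdr9c7, Ugcg and Aloxe3 were at the smallest p the run allows and 4 of 10 such values adjust to 0.071 or 0.089. Their log2 differences in those runs were 1.78 to 1.97, 1.35 to 1.48, 1.21 to 1.35 and -1.39 to -1.23. Without Supt6-KO mouse 4, 8 passed. With Krt1 and Krt10 as the reference 10 passed. With Krt5 and Krt14, Alox12b was 0.19, Abca12 0.12 and Elovl4 0.01 in place of lower values, and Aloxe3 (-1.07) had adjusted p = 0.063. Alox12b relative to Krt10 was 0.10 and 0.06 without Supt6-KO mice 2 and 3, and Abca12 was 0.01 without control 5 or Supt6-KO mouse 2, with ranges of -0.20 to 0.10 and -0.38 to 0.01. The causes of the other changes were not tested.

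Deviations of same-numbered mice from their group means correlated weakly, at -0.009, 0.158, 0.141 and 0.026, with 0.158 and 0.141 above the limit of 0.1 set for pairing. Differently numbered mice were not compared, so whether the numbers pair the mice was not settled. With the replicate block on mice 1 to 4, 3 members were higher and 3 lower. Depth does not limit the members, whose lowest count was 446.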

Other observations

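Hair, dermal and fat genes also differed between the groups in these skins. Of 12 hair shaft and inner root sheath markers tested, 11 were lower and none higher, and their sum spread widely among the controls, at 2339, 189, 782, 454 and 5.78 CPM, beside 16.1 to 73.9 CPM in the Supt6-KO mice. Tchh, the 1 marker not called, made up most of the Supt6-KO sum, with a mean of 48.2 of 50.4 CPM. Of 7 dermal fibroblast markers 4 were lower (7 with library totals), among them Col1a1, which fell from 874 to 70.0 CPM, while the most abundant, Col3a1, stood at 2113 and 1709 CPM and did not pass the test. Of 6 adipocyte markers 4 were lower, whereas the most abundant, Fabp4, stood at 206 and 284 CPM and did not pass. Of 7 macrophage markers 4 were higher and 1 lower with TMM, and 1 was higher with library totals, with Mrc1, the most abundant in Supt6-KO skin, going from 21.7 to 80.3 CPM. All 8 ear cartilage markers tested were lower, with sums of 342 to 800 CPM in the controls and 64.6 to 80.5 CPM in the Supt6-KO mice.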
